A study of Homo sapiens with 11 samples.

Results

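Long non-coding RNAs (lncRNAs) are transcripts that are spliced and often polyadenylated like mRNA but are not known to be translated into a functional protein. Those described here are 10 lncRNAs whose level is altered in one cancer or another: NEAT1 and MALAT1, which organise nuclear bodies, GAS5 and SNHG1, which carry small nucleolar RNAs (snoRNAs) in their introns, the imprinted H19, HOTAIR of the HOXC cluster, PVT1 and PCAT1 on chromosome 8, the prostate marker PCA3, and UCA1, first described in urothelial cancer. They and the other gene lists below were chosen by name, but with earlier results of these data known. All 10 had a row in the tables, out of 25590 genes. All 10 carry the biotype lncRNA in RefSeq, which gives that biotype to 2399 rows of the tables, 1943 of them with at least 1 read in any tumour.

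The RNA came from subcutaneous tumours of PC-3, a human prostate carcinoma cell line, grown in male athymic nude mice (Crl:NU-Foxn1nu) that were 8 weeks old and lack a thymus and hence most T cells. From day 7 the hosts were injected intraperitoneally either with A2M*, the transformed, receptor-binding form of the protease inhibitor alpha2-macroglobulin, in amounts of 5.6 mg for each 20 g of body weight, or with the PBS vehicle, and tumours were taken by day 31. There were 5 PBS tumours, labelled PC3_tumor_123 to PC3_tumor_127, and 6 A2M* tumours, labelled PC3_tumor_128 to PC3_tumor_132 and PC3_tumor_112, with 1 library each, and all of them grew from the same cell line. They are written T123, T124 and so on, and values of single tumours are given in the order T123 to T127 for PBS and T128 to T132, then T112, for A2M*. The comparison asks whether treatment of the host with A2M* altered the RNA of the tumour cells. Between 16958533 and 35874381 human reads per tumour were counted on genes, with the lowest total in A2M* tumour T129. The epithelial genes KRT8 and EPCAM were present at a median of 245.7 and 172.2 RPKM, whereas the prostate luminal gene KLK3 had no read in any tumour, which allows up to 3 counts per tumour, and KLK2 had at most 1. RPKM, the reads of a gene per 1000000 reads and per kilobase of its exons, is used wherever levels of different genes are compared. In bulk tumours, fewer cells of a type and less RNA per cell cannot be told apart.

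MALAT1 lies in nuclear speckles, where splicing factors collect, and NEAT1 is the scaffold around which paraspeckles assemble. Both genes make a long transcript whose 3′ end is not polyadenylated: an RNase cuts the precursor, and the new end is held in a triple helix in which a genomically encoded A-rich tail pairs with U-rich stretches upstream. The short form of NEAT1, in contrast, ends at a usual poly(A) site. GAS5 and SNHG1 are spliced hosts whose exons encode no known protein; the spliced GAS5 RNA starts with a pyrimidine tract like the mRNAs of ribosomal proteins (5′ TOP), is translated abortively and is degraded, so that it accumulates when translation stops.

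The ends of both nuclear RNAs show why the library preparation matters for them. They are read 5′ to 3′ from GRCh37 on the plus strand, with the final A-rich run in capitals together with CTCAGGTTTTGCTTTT, at 16 bases the longest run that the last 100 bases of NEAT1 share with the MALAT1 gene (its Ts are the Us of the RNA), from chr11:65273488-65273587 for MALAT1 and from chr11:65212912-65213011 for the long NEAT1.
MALAT1 long end: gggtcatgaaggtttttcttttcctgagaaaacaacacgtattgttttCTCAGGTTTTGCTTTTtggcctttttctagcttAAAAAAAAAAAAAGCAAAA
NEAT1 long end: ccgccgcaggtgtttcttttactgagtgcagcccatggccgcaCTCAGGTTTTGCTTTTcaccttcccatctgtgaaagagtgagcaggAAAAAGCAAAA
Searched on the strand of the gene only, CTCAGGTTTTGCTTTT occurred 1 time in the whole MALAT1 gene and 1 time in NEAT1, and AAAAGCAAAA, the last 10 bases of NEAT1, occurred 2 times in MALAT1 and 1 time in NEAT1. Among 250371 annotated transcripts of 100 bases or more, 0.000799% held the first and 0.145% the second in their last 100 bases. The short NEAT1 transcript ended at chr11:65193925-65193984 with AATAAA, the poly(A) signal, in capitals here, which 28.4% of 254139 transcripts held in their last 60 bases.
NEAT1 short end: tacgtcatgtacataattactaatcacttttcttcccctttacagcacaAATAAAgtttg

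The first 40 bases of both snoRNA hosts, with the leading pyrimidines in capitals, are given at the commonest start of their annotated transcripts. They lie on the minus strand at chr1:173837088-173837127 for GAS5 (50 of 91 transcripts) and chr11:62623318-62623357 for SNHG1 (25 of 80).
GAS5 start: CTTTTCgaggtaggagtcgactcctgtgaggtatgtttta
SNHG1 start: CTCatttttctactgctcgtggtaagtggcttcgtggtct
At these starts GAS5 began with 6 pyrimidines and SNHG1 with 3. A start with C and at least 4 further pyrimidines was found in 54.9% of the GAS5 transcripts, in 1.25% of those of SNHG1, in 20.5% of those of 15 genes known for 5′ TOP mRNAs and in 2.59% of all 254413 transcripts. Most annotated transcripts of known 5′ TOP genes thus lacked such a start, so annotated starts cannot tell whether SNHG1 belongs to that class.

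The level of the 10 lncRNAs ran from 0.116 to 785.4 RPKM, and NEAT1 stood far above the others. Over the 11 tumours NEAT1 had 785.4 ± 146 RPKM (SD, n = 11), rank 59 among all genes and rank 1 among rows of biotype lncRNA, and it took 0.289% of all reads counted on genes. SNHG1 (114.4 ± 11.1 RPKM, rank 6 among lncRNA rows) and GAS5 (94.5 ± 12.8 RPKM, rank 7) followed, and their ranges over the tumours overlapped. MALAT1 came next at 31.3 ± 5.24 RPKM, rank 23, with no overlap with GAS5 above it or with PVT1 below it. PVT1 (7.05 ± 0.509 RPKM) and H19 (4.91 ± 2.86 RPKM) overlapped, because H19 varied widely. HOTAIR had 1.45 ± 0.176 RPKM, UCA1 0.980 ± 0.299 RPKM and PCAT1 0.822 ± 0.131 RPKM, and each of them overlapped with its neighbour in this order. PCA3 was lowest, at 0.116 ± 0.0348 RPKM with 6 to 19 reads per tumour, and none of its values reached the lowest of PCAT1.

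**Figure D1:**
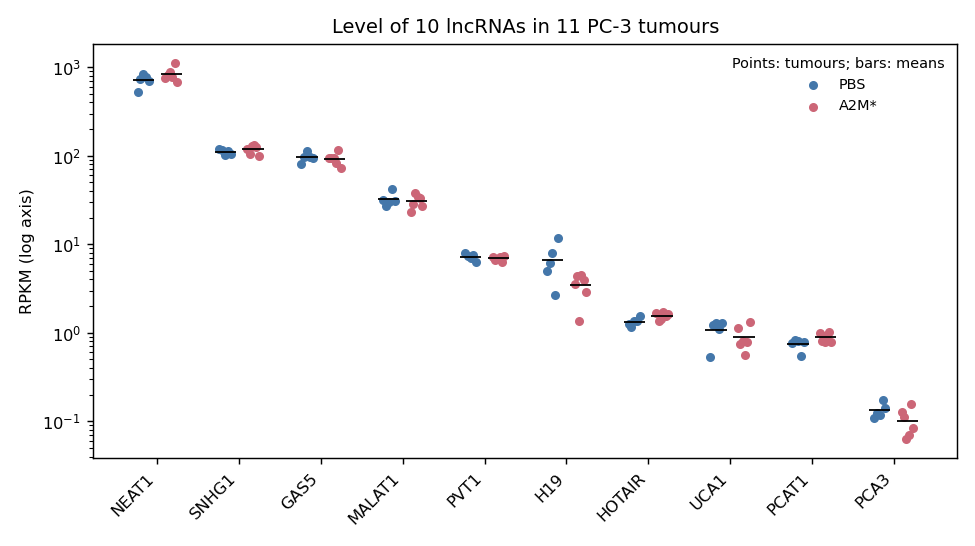
RPKM on a log axis for each of the 10 lncRNAs, with points for single tumours (5 PBS in blue, 6 A2M* in red) and bars for group means. NEAT1 lies highest at 528.5 to 1122 RPKM, PCA3 lowest at 0.0626 to 0.175 RPKM, and the groups overlap for every lncRNA.

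Of the 10 lncRNAs, 0 differed between the groups at an adjusted p under 0.01, the threshold used here, or under 0.05 (edgeR quasi-likelihood test on 16630 genes, Benjamini-Hochberg adjustment over all of them). Across all genes tested the percentage called was also 0%, with a lowest adjusted p of 0.599. At an unadjusted p under 0.05 there was 1 of the 10, H19, against 7.08% of all genes tested. H19 was lower in the A2M* tumours, as were 3.53% of all genes at that p, and 0 of the 10 were higher, against 3.55%. With DESeq2 0 of the 10 were called at an adjusted p under 0.01, where 0.00601% of all genes were. The tumours of both groups overlapped for each of the 10, while 0.71% of all genes did not overlap, 0.385% being higher and 0.325% lower in the A2M* tumours. The estimated log2 fold change, A2M* minus PBS, was below 0 for 6 and above 0 for 4, with a median of -0.10 against -0.0021 over all genes, of which 50.6% lay below 0. A log2 fold change beyond 0.5 in either direction was estimated for 1 of the 10 and for 2.32% of all genes. The p-values measure the spread between these tumours.

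**Figure D2:**
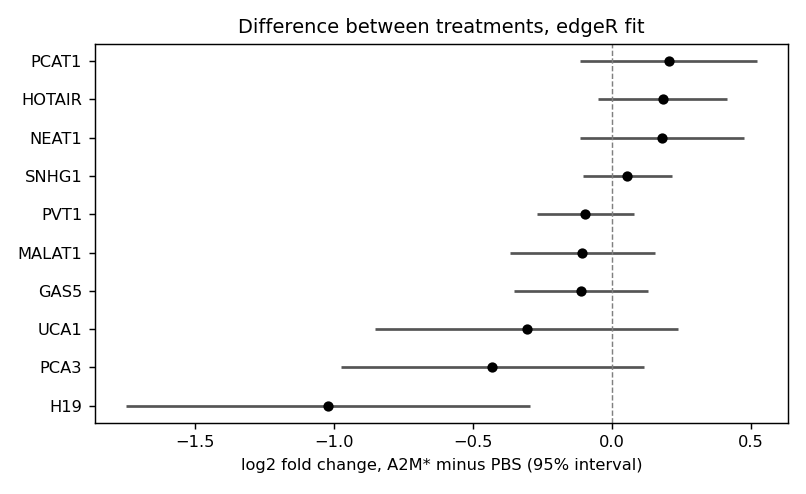
log2 fold change (A2M* minus PBS) of each lncRNA with its 95% interval from the edgeR fit on all genes. The interval of H19, -1.75 to -0.30, is the only 1 of the 10 that does not reach 0, and its adjusted p was 0.640.

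NEAT1 was read 58929, 89139, 108303, 76133 and 94172 times in the PBS tumours, which is 528.5, 736.1, 842.7, 782.7 and 702.8 RPKM. In the A2M* tumours it had 758.9, 811.7, 882.0, 782.5, 1122 and 688.8 RPKM. The highest value was in A2M* tumour T132 and the lowest in PBS tumour T123, and 2 of the 6 A2M* tumours lay above every PBS tumour. NEAT1 gave a log2 fold change of 0.18 (SE, standard error, 0.138, 95% interval -0.12 to 0.47, edgeR adjusted p = 0.849), and without PBS tumour T123 it was 0.079. NEAT1 (chr11:65190245-65213011) makes a transcript of up to 22743 bases, but its reads were counted over 3735 bases of exon, close to the length of the short form, whose sequence the long form contains. The long form, the one that builds paraspeckles, therefore has no value of its own here. MIR612, a microRNA gene that begins 21661 bases into NEAT1 in RefSeq, beyond the counted length, had 0 to 7 reads per tumour.

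Of 12 genes for paraspeckle proteins, all tested, 0 passed the adjusted threshold and 3 had an unadjusted p under 0.05, 2 of them higher and 1 lower in the A2M* tumours, against 7.08% of all genes at that p (3.55% higher and 3.53% lower). Their median log2 fold change was 0.016. RBM14, an RNA-binding protein needed for paraspeckles to form, had the highest log2 fold change at 0.55 (SE 0.127, edgeR adjusted p = 0.599), with 9.37 ± 0.647 RPKM (SD, n = 5) in the PBS and 14.2 ± 3.14 RPKM (SD, n = 6) in the A2M* tumours. The lowest was that of EWSR1 at -0.17 (SE 0.0671, edgeR adjusted p = 0.649). SFPQ and NONO, the core proteins bound by NEAT1, had log2 fold changes of 0.073 and -0.034.

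MALAT1 (chr11:65265111-65275544, a gene of 1 exon in its longest annotated form) had 31.7, 26.8, 29.7, 41.9 and 30.6 RPKM in the PBS tumours. Values of the A2M* tumours were 23.4, 28.6, 37.6, 34.4, 33.0 and 27.2 RPKM. The A2M* tumours thus lay on both sides of the PBS median. Its log2 fold change was -0.11 (SE 0.121, 95% interval -0.37 to 0.15, edgeR adjusted p = 0.906), and -0.0048 without PBS tumour T126, the highest. The TruSeq RNA kit used for the libraries enriches RNA by its poly(A) tail; how much of the MALAT1 RNA it retained through the encoded A-rich end shown above was not tested. Among 11 genes for nuclear speckle proteins and splicing factors, 0 passed the adjusted threshold. At an unadjusted p under 0.05 there was 1, SRSF7, against 7.08% of all genes tested. SRSF7 had a log2 fold change of 0.27 (SE 0.0754, edgeR adjusted p = 0.599), and SRRM2, with -0.097, was the lowest of the list.

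GAS5 (chr1:173827697-173838020) had 81.1, 97.0, 113.6, 97.0 and 95.2 RPKM in the PBS tumours. The A2M* tumours had 95.3, 94.6, 93.5, 83.4, 116.3 and 72.7 RPKM. A2M* tumours held both the highest and the lowest value. The log2 fold change was -0.11 (SE 0.112, 95% interval -0.35 to 0.13, edgeR adjusted p = 0.892), and -0.039 without PBS tumour T125, the highest of that group. The exons of GAS5 overlap those of GAS5-AS1 on the other strand, which has its own row, and the strand setting of the counting is not given in the sources used here.

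SNHG1 (chr11:62619450-62623425) was the second host and among the steadiest of the 10. It had 117.8, 114.7, 100.8, 111.97 and 105.4 RPKM in the PBS tumours, and 118.6, 105.3, 129.96, 130.7, 124.7 and 98.8 RPKM in the A2M* tumours. The A2M* group was wider than the PBS group on both sides, with 4 tumours above every PBS tumour and 1 below. For SNHG1 the log2 fold change was 0.054 (SE 0.0744, 95% interval -0.11 to 0.21, edgeR adjusted p = 0.920), and it was 0.098 without A2M* tumour T112 and 0.029 without A2M* tumour T131.

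GAS5 and SNHG1 belong to a family of 20 snoRNA host genes with a row in the tables, in which 9 log2 fold changes were above 0 and 11 below. None of the 20 passed the adjusted threshold in edgeR, and at an unadjusted p under 0.05 there were 3, against 7.08% of all genes, and of the 3, 1 was higher (SNHG3, log2 fold change 0.25, SE 0.0917) and 2 were lower in the A2M* tumours. The lowest log2 fold change was that of SNHG18 (-0.27, SE 0.288, edgeR adjusted p = 0.900). The 15 mRNAs of the 5′ TOP class, most of which code for ribosomal proteins and translation factors, all had log2 fold changes below 0, from -0.24 for TPT1, the tumour protein TCTP, to -0.047 for NAP1L1, a histone chaperone, with a median of -0.16, where 50.6% of all genes lay below 0. Of these, 7 were lower at an unadjusted p under 0.05, as were 3.53% of all genes, and 0 passed the adjusted threshold (edgeR, smallest adjusted p = 0.643). The log2 fold change of GAS5, -0.11, lay within the range of the 5′ TOP mRNAs, and that of SNHG1, 0.054, lay above it. Whether either host behaved as a 5′ TOP RNA here was not tested.

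**Figure D3:**
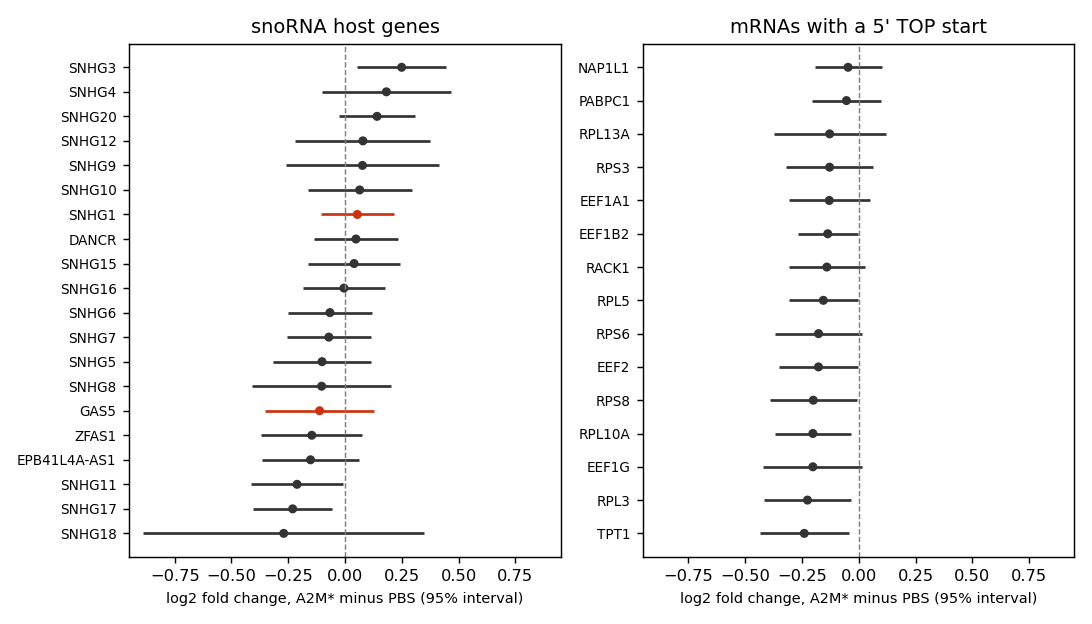
log2 fold change (A2M* minus PBS) with 95% interval for 20 snoRNA host genes (left, GAS5 and SNHG1 in red) and 15 mRNAs with a 5′ TOP start (right). The host genes lie on both sides of 0, 9 above and 11 below, and the 15 mRNAs lie below it, from -0.24 to -0.047.

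The snoRNAs released from the introns of both hosts guide the methylation of ribosomal RNA. Of 18 such snoRNAs with a row, 9 had enough reads for the test and 0 of them had an unadjusted p under 0.05. SNORD22, from SNHG1, was read most, 53 to 120 times per tumour, and SNORD76, from GAS5, was read 11 to 46 times. The highest log2 fold change was that of SNORD79 (0.75, SE 0.383, edgeR adjusted p = 0.740) with 3 to 23 reads, and the lowest was that of SNORD29 (-0.20, SE 0.275). RNA as short as a mature snoRNA is largely lost in this kind of library, and whether the reads came from snoRNAs or from unspliced host RNA was not tested.

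H19 was the lncRNA with the largest estimated difference. It is transcribed from the maternal allele next to IGF2 and is high in the fetus and placenta and in some tumours. In the PBS tumours it had 4.99, 6.11, 7.89, 2.66 and 11.7 RPKM, from 344, 457, 627, 160 and 972 reads. Treated tumours had 3.57, 4.34, 1.35, 4.52, 3.90 and 2.91 RPKM, from 274, 170, 80, 281, 201 and 216 reads. All 6 A2M* tumours lay below the PBS median and 4 of the 5 PBS tumours lay above every A2M* tumour, but PBS tumour T126 lay among the A2M* tumours, so that the groups overlapped.

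The mean of H19 was 6.68 ± 3.41 RPKM (SD, n = 5) in the PBS and 3.43 ± 1.17 RPKM (SD, n = 6) in the A2M* tumours. The log2 fold change was -1.02 (SE 0.338, 95% interval -1.75 to -0.30), a ratio of 0.493 with an interval of 0.298 to 0.815. The unadjusted p of 0.00929 ranked 238 among all genes tested, and the adjusted p was 0.640 (edgeR quasi-likelihood test). A two-sided exact permutation test of log2 CPM (counts per 1000000 counts) over all 462 labelings of the tumours, whose smallest possible p is 0.00216, gave p = 0.0628. DESeq2 gave an adjusted p of 0.453. H19 spread more between tumours of a group than 99.1% of the genes tested, with a residual SD of 0.725 on the log2 CPM scale against a median of 0.185. PBS tumours T126 and T127 set the size of the estimate in opposite directions, since it was -1.22 without tumour T126 and -0.72 without tumour T127, with adjusted p between 0.420 and 1.00 over all fits that left out 1 tumour.

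H19 (chr11:2016396-2025782, minus strand) has 5 exons in the annotated transcript nearest to the counted length and is the host of miR-675, a microRNA cut from its first exon. Its mature forms, as RefSeq gives them with the seed, bases 2 to 8, in capitals, show that the strands of the hairpin have different seeds.
hsa-miR-675-5p: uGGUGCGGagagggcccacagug
hsa-miR-675-3p: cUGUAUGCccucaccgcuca
MIR675 had 0 reads in each of the 11 tumours, which allows up to 3 counts per tumour, in libraries that do not retain mature microRNAs. The paper's methods do not say how reads that overlap both MIR675 and the H19 exon were counted. The 0 therefore cannot be read as absence of RNA from that stretch. IGF2, the growth factor gene that shares its enhancers with H19, had 14, 15, 15, 14 and 16 reads in the PBS tumours and 20, 17, 15, 6, 11 and 49 reads in the A2M* tumours. Its counts lay within 14 to 16 in the PBS tumours, and A2M* tumours held both the lowest (T131) and the highest (T112), with overlap of the groups. Its log2 fold change was 0.62 (SE 0.376, 95% interval -0.19 to 1.43, edgeR adjusted p = 0.784). The estimates of H19 and IGF2 thus had opposite signs, with neither past the adjusted threshold. How far the estimate of IGF2 rested on tumour T112, with 49 reads against 6 to 20 in the other A2M* tumours, was not tested.

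**Figure D4:**
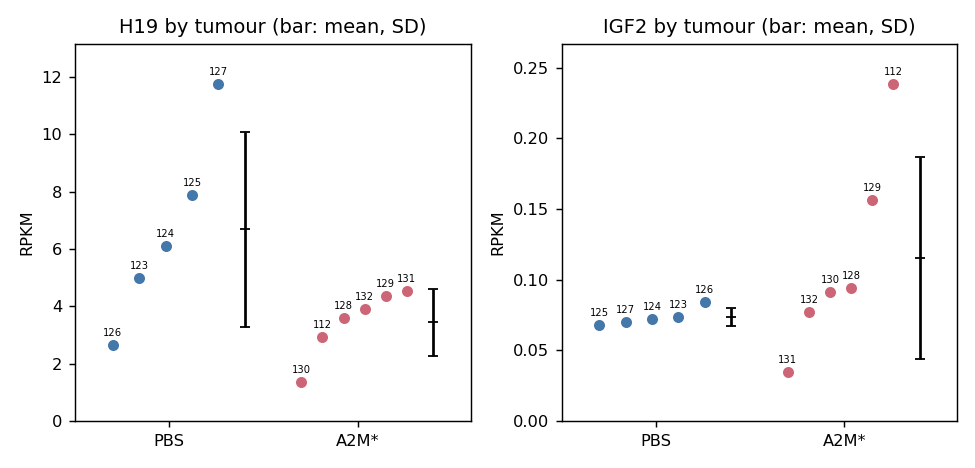
RPKM of H19 (left) and IGF2 (right) in each tumour, labelled by tumour number and sorted within groups, with mean and SD beside the points (PBS n = 5, A2M* n = 6). H19 is highest in PBS tumour T127 (11.7 RPKM) and lowest in A2M* tumour T130 (1.35 RPKM), and IGF2 is highest in A2M* tumour T112 (0.238 RPKM).

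HOTAIR is transcribed antisense within the HOXC cluster, between HOXC11 and HOXC12 (chr12:54356092-54368740, minus strand), and has been described as a scaffold for the Polycomb complex PRC2 and the KDM1A demethylase complex. It had 97, 96, 119, 92 and 142 reads in the PBS tumours, which is 1.26, 1.15, 1.34, 1.37 and 1.53 RPKM. The A2M* group had 1.67, 1.35, 1.44, 1.70, 1.53 and 1.63 RPKM. All 6 A2M* tumours lay above the PBS median, and 3 of them lay above every PBS tumour. The log2 fold change was 0.18 (SE 0.108, 95% interval -0.05 to 0.41, edgeR adjusted p = 0.781), and the two-sided exact permutation test gave p = 0.0649. Its neighbour HOXC11 had 21 to 54 reads per tumour and a log2 fold change of 0.029, and HOXC12 had at most 2 reads. Of 8 genes for the chromatin partners of HOTAIR, 0 passed the adjusted threshold. KDM1A alone had an unadjusted p under 0.05, as did 7.08% of all genes tested. Its log2 fold change was -0.13 (SE 0.0587, edgeR adjusted p = 0.700). EED, a PRC2 subunit, had the highest, 0.13 (SE 0.0919).

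PVT1 and PCAT1 both lie on the long arm of chromosome 8, in a region that is often gained in prostate cancer. PVT1 (chr8:128806772-129199347) hosts a row of microRNAs, and was the lncRNA that varied least between tumours. It had 7.89, 7.28, 6.96, 7.57 and 6.32 RPKM in the PBS tumours and 7.17, 6.59, 6.88, 7.19, 6.28 and 7.44 RPKM in the A2M* tumours. Its highest value was 1.26 times its lowest, and the log2 fold change was -0.097 (SE 0.0812, 95% interval -0.27 to 0.08, edgeR adjusted p = 0.864). Of the microRNA genes of its locus, MIR1204 had 0 to 2 reads per tumour and MIR1205, MIR1206, MIR1207 and MIR1208 had 0 reads in every tumour.

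PCAT1 (chr8:127568568-128431295), a lncRNA found in prostate cancer, had 45, 53, 56, 28 and 56 reads in the PBS tumours, which is 0.757, 0.821, 0.817, 0.540 and 0.784 RPKM. In the treated group it had 0.997, 0.799, 0.782, 0.951, 1.01 and 0.781 RPKM. PBS tumour T126 stood below all the others, and 3 A2M* tumours stood above every PBS tumour. For PCAT1 the estimate was a log2 fold change of 0.20 (SE 0.148, 95% interval -0.12 to 0.52, edgeR adjusted p = 0.840), and 0.11 without PBS tumour T126.

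PCA3, the prostate-specific RNA measured in urine as a marker of prostate cancer, was near the limit of these libraries. It lies within PRUNE2 on the opposite strand (chr9:79306896-79478223). In the PBS tumours it was read 12, 15, 15, 17 and 19 times, or 0.108, 0.124, 0.117, 0.175 and 0.142 RPKM. In the A2M* tumours it was read 16, 7, 6, 7, 13 and 10 times, or 0.129, 0.111, 0.0626, 0.0696, 0.156 and 0.0833 RPKM. In 3 A2M* tumours it lay below every PBS tumour. PCA3 gave a log2 fold change of -0.43 (SE 0.253, 95% interval -0.98 to 0.11, edgeR adjusted p = 0.777), and the two-sided exact permutation test gave p = 0.0996. Without A2M* tumour T132 the estimate was -0.57, with an unadjusted p of 0.0405 in edgeR, and without A2M* tumour T130 it was -0.32, with an unadjusted p of 0.226. PRUNE2 itself had 4 to 11 reads per tumour, too few for the test. The strand setting of the counting is not given in the sources used here. Whether some of the reads on PCA3 came from unspliced PRUNE2 RNA was not tested.

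UCA1 (chr19:15939016-15947138) had 37, 91, 102, 67 and 106 reads in the PBS tumours, which is 0.536, 1.21, 1.28, 1.11 and 1.28 RPKM. The 6 A2M* tumours had 1.13, 0.739, 0.808, 0.562, 0.794 and 1.33 RPKM, from 87, 29, 48, 35, 41 and 99 reads. PBS tumour T123 was the lowest of all 11, and the A2M* tumours fell into both ends of the range, with T112 the highest of all. For UCA1 the log2 fold change was -0.31 (SE 0.254, 95% interval -0.85 to 0.24, edgeR adjusted p = 0.864). Without PBS tumour T123 it was -0.48, with an unadjusted p of 0.0410, and without A2M* tumour T131 it was -0.19, with an unadjusted p of 0.445, with adjusted p of at least 0.681 in each fit that left out 1 tumour.

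The 10 lncRNAs differed in how far their spread between tumours went beyond counting. A chi-square of the counts within groups, divided by its degrees of freedom, is near 1 where tumours differ by counting error only. It was 0.849 for PCAT1, 0.949 for PCA3 and 0.998 for HOTAIR, so that these values spread no more than their reads would. PVT1 had 1.87, UCA1 6.05, SNHG1 32.0 and GAS5 33.6, H19 had 66.9, MALAT1 237.8 and NEAT1 2429. Among them PVT1, SNHG1 and HOTAIR had the smallest residual SD on the log2 CPM scale, 0.103, 0.122 and 0.137, below the median of all genes tested, and only H19 (0.725) and UCA1 (0.491) were above the 90th percentile. At the mean of PCA3, counting error alone gives a coefficient of variation of 28.3%, against 0.347% for NEAT1, so that the depth limits the estimate of PCA3 and hardly bears on that of NEAT1.

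Of the 45 pairs of lncRNAs, NEAT1 and GAS5 varied together most closely. After removal of the group means, Pearson's r of log2 CPM over the 11 tumours was 0.903 (100000 permutations within groups, permutation p = 0.00095, adjusted over the pairs 0.0427) and Spearman's rho was 0.655 (permutation p = 0.0349, adjusted 0.673). Tumour T132 was highest for both RNAs in the A2M* group, tumour T125 was highest and tumour T123 lowest for both in the PBS group. Without the 2 tumours farthest from the median of NEAT1, r was 0.825 over 9 tumours. The pair did not pass on ranks, without removal of the group means (r = 0.698, permutation p = 0.0170, adjusted 0.383), or in 9 of the 11 sets that left out 1 tumour (the smallest adjusted permutation p of any pair was 0.0122 to 0.305 over the 11 sets). Of the other pairs, H19 and PCAT1 had an unadjusted permutation p under 0.05 (r = 0.727, p = 0.0185, adjusted 0.416). The lowest r was -0.65, between MALAT1 and PCAT1.

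**Figure D5:**
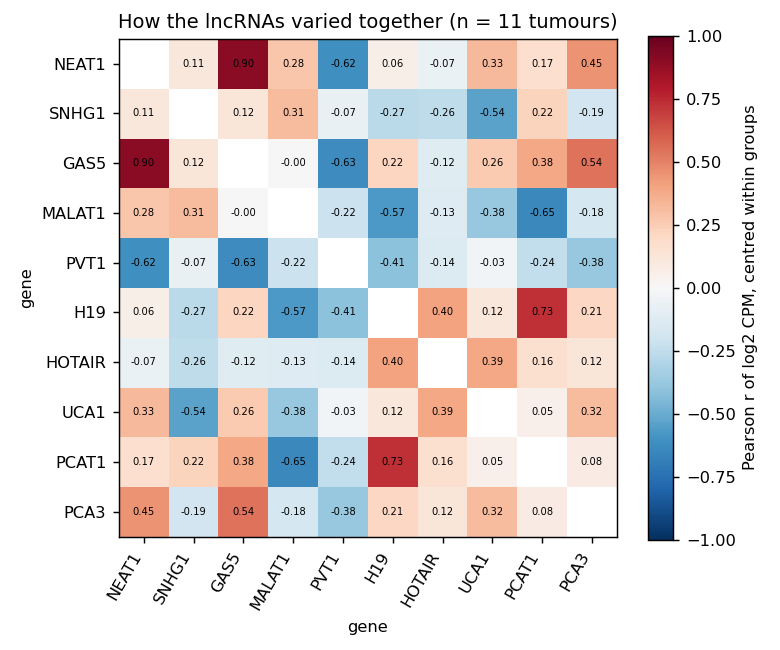
Pearson's r of log2 CPM between each pair of the 10 lncRNAs over 11 tumours, after removal of the group means, from -1 (blue) to 1 (red). NEAT1 and GAS5 have the highest value, 0.90, and MALAT1 and PCAT1 the lowest, -0.65.

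The genes most like each lncRNA across the 11 tumours, by Pearson's r of log2 CPM after removal of the group means among 14964 genes, are given as a description without a test, since the highest of so many values is high in any data with 11 tumours. They were LUC7L3 (0.969) and ZFYVE16 (0.965) for MALAT1, and SEC11A (0.943) and LRP2BP (0.930) for NEAT1. NUPR1 (0.969) and RPL26 (0.966) were nearest to GAS5, and NUPL2 (0.924) and STAC3 (0.917) to SNHG1. For H19 they were DALRD3 (0.951) and TMEM39B (0.944), and for HOTAIR EMX2OS (0.891) and USP42 (0.880). PVT1 was most like PPIA (0.962) and NSUN2 (0.956), PCAT1 most like TMEM147 (0.955) and PPIC (0.942). PCA3 had TMEM130 (0.857) and RP9 (0.850), and UCA1 had TNFAIP3 (0.943) and IGF2BP2 (0.901).

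Of 26 other lncRNAs studied in cancer, 21 had enough reads for the test and 0 passed the adjusted threshold. At an unadjusted p under 0.05 there were 2, HOTAIRM1 (log2 fold change 0.21) and FTX (-0.21), against 7.08% of all genes tested. The log2 fold changes ran from -0.46 for CCAT1 to 0.29 for CASC2, with a median of -0.009. PCGEM1, another prostate lncRNA, had no read in any tumour. Among 13 protein-coding neighbours of the 10 lncRNAs, 10 were tested and 0 had an unadjusted p under 0.05, and the highest log2 fold change was the 0.62 of IGF2.

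Hypoxia genes and host markers also varied between the tumours, and their part in the values of the lncRNAs was not tested. Of 10 genes of the response to hypoxia, 8 were lower at an unadjusted p under 0.05, against 3.53% of all genes, and all 10 had log2 fold changes below 0, against 50.6% of all genes, from -0.83 for CA9 to -0.24 for VEGFA, with 0 past the adjusted threshold in edgeR. Their summed level was 3377 to 7111 RPM (reads per 1000000 reads) in the PBS and 2699 to 5070 RPM in the A2M* tumours. Of 9 markers of host stroma, endothelium and leukocytes, 8 were tested and 0 had an unadjusted p under 0.05, from -0.44 for PTPRC to 0.56 for ADGRE1, with summed levels of 368.4 to 712.4 RPM in the PBS and 364.6 to 966.5 RPM in the A2M* tumours. None of the 9 was at 0 in every tumour, although reads assigned to the mouse had been removed. Reads per tumour differed widely, from 2 to 17 for CDH5, of endothelium, to 7677 to 28262 for COL1A1, of stroma. Between these, CD68, of leukocytes, had 381 to 902 and PECAM1, of endothelium, 238 to 803. Of the 6 genes listed as markers of PC-3 cells, 5 were epithelial and VIM was mesenchymal. All 6 had log2 fold changes below 0, against 50.6% of all genes. Their median was -0.12, against -0.0021 over all genes, and 0 had an unadjusted p under 0.05.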

How the data were processed

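Total RNA of 11 PC-3 tumours was made into TruSeq RNA libraries and sequenced as single reads on a HiSeq2500. Per the paper's methods, reads were sorted into human and mouse with xenome, human reads were mapped with TopHat2 to hg19 and counted on RefSeq genes with featureCounts (the labels name bcl2fastq 1.8.4; versions of the others and the strand setting are not given in the sources used here). The authors deposited raw counts, RPM (count divided by the total of the tumour) and RPKM (RPM divided by exon length in kilobases). RPM differed from the recomputed value by at most 4.99e-07.

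Tumours were grouped by labelled treatment. Low genes were left out with filterByExpr, TMM factors (0.958 to 1.03) scaled the counts, and edgeR 4.0.16 (R 4.3.3) gave the quasi-likelihood test, without covariates, called at a Benjamini-Hochberg adjusted p under 0.01; all 10 lncRNAs passed the filter, and the common biological coefficient of variation was 13.9%. Totals of 16958533 to 35874381 counts set a floor of 3 counts at 0.0836 to 0.177 RPM, which covers counting error only. Pairs were compared by log2 CPM (prior count of 2). The fit was tested on simulated data. Named genes are the 10 lncRNAs, the highest and lowest log2 fold change of each list, the 2 genes nearest to each lncRNA and the marker genes, of which some values are not reported here; SFPQ, NONO, SNHG3, HOTAIRM1, FTX, HOXC11, HOXC12, PRUNE2, PCGEM1 and the snoRNA and microRNA genes with read counts were added after their values were seen. The lncRNAs and all lists were chosen with earlier results of these data known. Coordinates and sequences are from GRCh37 with GENCODE v44 (lifted), and miR-675 from RefSeq (GRCh38.p14). Alternatives were DESeq2 1.42.0, limma-voom (limma 3.58.1), the edgeR likelihood ratio test, RLE, upper-quartile and library-size scaling, other filters, RPKM values with pseudocounts of 0.1 and 1, and leaving out each tumour. Python 3.11.15 and matplotlib 3.10.9 were used for figures.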

Additional observations from a re-analysis of the deposited data

Results flagged for a closer look

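Of 22 groups of values (each lncRNA and the sequencing totals in each treatment group), 2 held a tumour far from the others by Dixon's test, where chance flags about 1 in 20 groups, here 1.1. PCAT1 was 0.540 RPKM in PBS tumour T126 against 0.757 to 0.821 RPKM in the other PBS tumours. UCA1 was 0.536 RPKM in PBS tumour T123 against 1.11 to 1.28 RPKM in the other PBS tumours.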

How the results depend on the processing

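The count of lncRNAs past the threshold was 0 in each of 12 alternatives with all tumours and in each of 11 fits without 1 tumour. All 219 log2 fold changes of the 10 lncRNAs under the alternatives kept their direction. None passed the threshold where an adjusted p was given, which the exact permutation test among them does not have. H19 lay between -1.03 and -0.73 under alternatives that kept all tumours (adjusted p 0.339 to 0.736). On log2(RPKM + pseudocount) low genes such as PCA3 have smaller values by construction (-0.041 to -0.46 over the alternatives), and PCA3 has no value where a gene needs 10 counts in each tumour. The count of 1 pair that varied together was 0 without removal of the group means, 0 by Spearman's rho, 0 on log2(RPKM + 0.1) and 0 with library size only, with smallest adjusted permutation p of 0.383, 0.673, 0.0513 and 0.0504, and 0 to 2 with 1 tumour left out; the cause was not tested. No paired analysis was possible because the groups share no tumour numbers. With 6 to 19 reads, PCA3 is limited by depth, as are the snoRNAs and microRNA genes.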
